A study of Mus musculus with 30 samples.

Results

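Dendritic cells labelled Rubcn KO were compared 4 h after they were given apoptotic Jurkat cells with the same kind of cells left untreated. The libraries were picked by their labels alone: 3 libraries of Rubcn KO cells given apoptotic Jurkat cells for 4 h and 3 libraries of untreated Rubcn KO cells, which makes 6 of the 30 libraries of the series, and all 14808 genes that passed a filter on low counts were tested. All cells were FLT3L-derived bone marrow dendritic cells of the mouse, cultured for 6 to 7 days with FLT3L at 200 ng/ml, a cytokine that yields a mixture of dendritic cell types. The other groups used beside them were Rubcn KO cells given apoptotic Jurkat cells for 30 min, Rubcn KO cells given OVA (ovalbumin protein) for 4 h, and wild-type cells untreated or given apoptotic Jurkat cells for 4 h, with 3 libraries each. For 1 check of early genes, wild-type cells given apoptotic Jurkat cells for 30 min and cells of both genotypes given OVA for 30 min were used as well, again with 3 libraries each. Jurkat is a human T-cell leukaemia line, so the meal is human and the eater is mouse. The sources used here give neither how the Rubcn allele was made, nor the age or number of mice, nor whether the libraries of a group came from separate cultures, so p-values measure only the spread between these libraries, which may be technical.

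Dendritic cells take up dying cells and present pieces of them to T cells, usually without alarm when the meal is a cell that died by apoptosis. Rubicon, the product of Rubcn, is needed for LC3-associated phagocytosis, in which the lipidated form of LC3 is attached to the single membrane of a phagosome holding such a meal, and it restrains canonical autophagy. Activated dendritic cells of all types share a programme in which NF-kB and interferon regulatory factors switch on chemokines, cytokines, co-stimulatory molecules and the lymph node homing receptor.

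Levels are CPM, a gene's counts relative to a library size scaled by TMM, a method that makes the bulk of genes equal between libraries, and are given as the value of each library in the order of replicates 1, 2 and 3. A gene was called changed at a Benjamini-Hochberg adjusted p (FDR) under 0.05 in edgeR's quasi-likelihood test over all genes tested. The 6 libraries held 44722284 to 47008485 counts. Rubcn itself, at chromosome 16, 32821702 to 32868366 on mm10, was read at 70.4, 72.2 and 75.8 CPM in the untreated KO libraries and at 49.1, 44.4 and 50.5 CPM after 4 h, against 95.6, 96.6 and 105 CPM in untreated wild-type cells. Counts over the whole gene cannot show which part is deleted, so these reads do not check the genotype. One library stood apart: replicate 2 of the KO cells given Jurkat cells for 4 h held 3.90% of its counts on Rn45s, the ribosomal RNA precursor, against 0.156 and 0.201% in replicates 3 and 1. Lars2, whose locus often collects ribosomal RNA reads, was at 306, 3872 and 236 CPM in that group and Rmrp, a small structured RNA, at 1.31, 32.2 and 0.809 CPM, again with replicate 2 on top. Without replicate 2, the number of genes called was 11210, so the size of the response did not rest on it. Among the KO cells given Jurkat cells for 30 min, replicate 1 also stood apart, with Cxcl10 at 103, 8.99 and 20.6 CPM in the 3 libraries and Rsad2 at 106, 10.4 and 20.3 CPM, and counts of calls that use this group are given with and without it.

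RNA of the Jurkat cells can enter the libraries through reads that match mouse genes. Of 28 T-lineage markers tested, 18 were called higher and 6 lower at 4 h. Lef1, a T-cell transcription factor, rose from 0.273, 0.207 and 0.321 to 22.0, 27.5 and 22.5 CPM, and Zap70, a kinase of the T-cell receptor, rose from 0.588, 0.829 and 0.801 to 22.7, 30.1 and 24.9 CPM. The summed level of all 29 T-lineage markers in the table was 388 ± 13.5 CPM (SD, n = 3) after Jurkat cells and 355 ± 21.4 CPM (SD, n = 3) in untreated cells (exact permutation test, two-sided, p = 0.2, where 0.1 is the smallest this design allows). Most of that sum came from markers that the untreated cells already expressed. The 14 markers whose mean was under 1 CPM in untreated KO cells summed to 3.55 to 5.03 CPM there and to 67.0 to 85.6 CPM after 4 h. Since they were picked by their level in these untreated libraries, the low sum there is built in. In KO cells given OVA for 4 h, not used to pick them, they summed to 4.82, 3.66 and 4.05 CPM. None of the 29 was at 0 in all 3 untreated libraries. Cd3e, part of the T-cell receptor complex and named here for that reason after its values were seen, was at 0.0210, 0.124 and 0.1002 CPM untreated and at 3.83, 4.77 and 3.65 CPM after 4 h. The part of Jurkat reads in the changes below was not tested gene by gene. Leaving out the 2072 genes that were already higher after 30 min of Jurkat cells than after 30 min of OVA in either genotype left 9819 called genes, of which 44.2% were higher. That exclusion goes by the early rise alone, whatever its source, and it cut several lists that the account below turns on: the members called higher and left were 17 of 41 interferon-stimulated genes, 14 of 41 cytokines and chemokines, 4 of 28 immediate early factors and 2 of 28 T-lineage markers. With the 30 min calls made without the deviating replicate 1, an alternative chosen after seeing the data, 1887 genes were left out, and 30, 18, 5 and 2 members were left in the same order. Of 31 maturation genes, 21 were left with all libraries and 26 without that replicate.

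**Figure D1:**
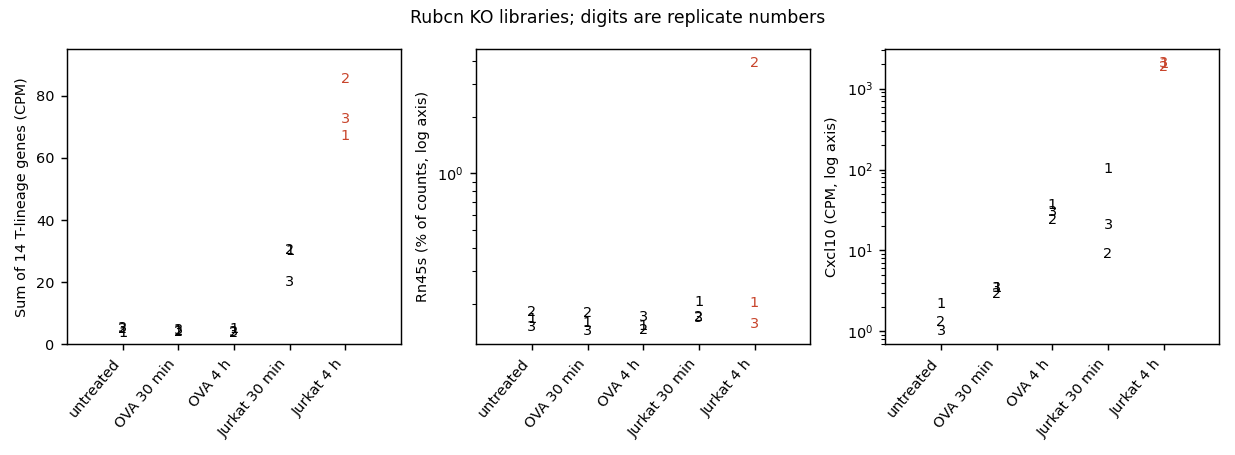
Panels of 3 measures in each library of Rubcn KO cells by treatment, with digits for replicate numbers and red for Jurkat 4 h: the summed level of the 14 T-lineage genes under 1 CPM in untreated cells (CPM), the share of counts on Rn45s (%, log axis) and the level of Cxcl10 (CPM, log axis). Replicate 2 of Jurkat 4 h stands apart in Rn45s, replicate 1 of Jurkat 30 min stands apart in Cxcl10, and the T-lineage sum is high in both Jurkat groups.

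Most of the tested genes were called changed between these libraries. Of 14808 genes, 5548 (37.5%) were called higher and 6071 (41.0%) lower, 78.5% in all. Changes of 2-fold or more were less even: 2316 genes (15.6%) rose and 1592 (10.8%) fell by that much, and 1166 (7.87%) rose and 304 (2.05%) fell 4-fold or more. The direction of small changes depends on the scaling. Scaling by total counts instead moved the median gene from a log2 fold change of -0.033 to -0.37 and the share of calls that were higher from 47.7 to 29.2%. Changes are therefore given relative to the median gene. Group counts below for this comparison stand against the 37.5% and 41.0% of all genes called higher and lower. Counts for this comparison under total counts stand instead against 3532 genes called higher and 8584 called lower of the 14808 tested.

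**Figure D2:**
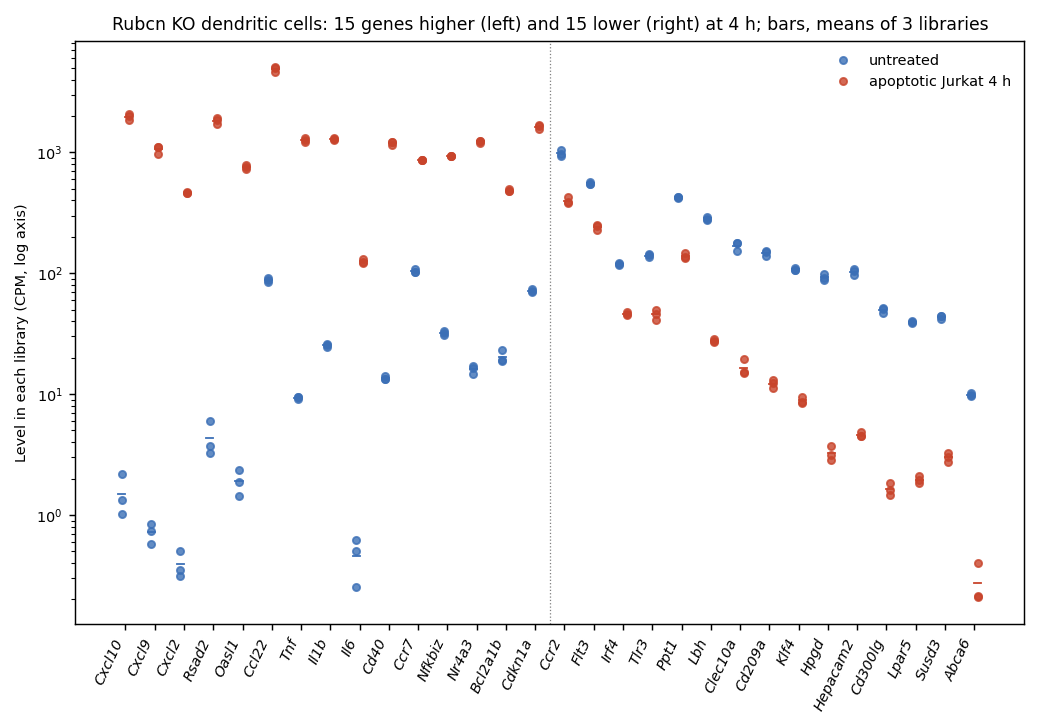
Level of 30 genes in each library of Rubcn KO cells (CPM, log axis), untreated in blue and apoptotic Jurkat 4 h in red, with bars for the means of 3 libraries. For each of the 30 genes, the 3 Jurkat libraries lie wholly above (left) or wholly below (right) the 3 untreated ones.

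Chemokines and cytokines were among the largest rises. Of the 10 genes that rose most, 5 were CXC chemokines, among genes at 5 CPM or more after 4 h and without overlap between libraries. Genes below that level were passed over, such as a ribosomal protein gene with a fitted rise of 10.74 on the log2 scale. Of 41 genes of this list, 39 were called higher and 1 lower, with a median log2 fold change of 4.31 against -0.033 over all genes. Cxcl10, a ligand of the T-cell and NK-cell receptor CXCR3, was at 2.16, 1.33 and 1.02 CPM in the untreated libraries and 2007, 1850.4 and 2080.0 CPM after 4 h (log2 fold change 10.37 ± 0.61 SE, FDR 1.7e-15). Cxcl9, another CXCR3 ligand, went from 0.735, 0.580 and 0.842 to 1103, 974 and 1112 CPM (log2 fold change 10.52 ± 0.67 SE, FDR 1.4e-14). The third CXCR3 ligand, Cxcl11, had no read in any untreated library and 54.9, 51.4 and 59.98 CPM after 4 h, at least 2693-fold above the level that 3 counts over the untreated group would give. Neutrophil-attracting CXC chemokines moved alike. Cxcl2 went from 0.315, 0.352 and 0.501 to 457, 473 and 462 CPM (log2 fold change 10.20 ± 0.19 SE, FDR 3.6e-27) and Cxcl3 from 0.147, 0.104 and 0.0601 to 83.2, 102 and 91.6 CPM (log2 fold change 9.77 ± 0.48 SE, FDR 2.9e-17). Cxcl1 rose by 7.15 on the log2 scale, to 102, 112 and 102 CPM. All these libraries separate without overlap. The 5 genes Cxcl2, Cxcl3, Cxcl9, Cxcl10 and Cxcl11 lie on chromosome 5, in 2 clusters of genes on mm10: Cxcl3 at 90786101 to 90788093 and Cxcl2 at 90903899 to 90905938, and Cxcl9 at 92321331 to 92328079, Cxcl10 at 92346639 to 92348889 and Cxcl11 at 92359545 to 92363296.

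Promoters are shown for the 4 chemokine genes of this list with the largest rises that have an entry in RefSeq's GRCm38.p6 promoter table, since these genes moved together and carry the largest rises. Each run is 300 bases in the direction of transcription, from 250 before the start site, and capitals mark a kappa B site spelled GGNNTTTCC or an interferon response element core spelled GAAANNGAA on either strand.
Cxcl9, chr5:92328030-92328329 (minus strand): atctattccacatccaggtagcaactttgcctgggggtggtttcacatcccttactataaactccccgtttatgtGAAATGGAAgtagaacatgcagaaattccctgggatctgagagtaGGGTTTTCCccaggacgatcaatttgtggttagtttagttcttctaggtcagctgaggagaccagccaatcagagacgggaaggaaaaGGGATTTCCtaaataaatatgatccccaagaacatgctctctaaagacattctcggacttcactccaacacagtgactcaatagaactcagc
Cxcl10, chr5:92348840-92349139 (minus strand): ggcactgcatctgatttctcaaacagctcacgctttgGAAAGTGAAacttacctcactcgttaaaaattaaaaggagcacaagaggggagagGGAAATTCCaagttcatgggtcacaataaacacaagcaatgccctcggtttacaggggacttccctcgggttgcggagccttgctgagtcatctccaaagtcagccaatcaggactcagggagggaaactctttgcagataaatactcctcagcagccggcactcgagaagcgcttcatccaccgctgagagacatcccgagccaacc
Cxcl2, chr5:90903649-90903948 (plus strand): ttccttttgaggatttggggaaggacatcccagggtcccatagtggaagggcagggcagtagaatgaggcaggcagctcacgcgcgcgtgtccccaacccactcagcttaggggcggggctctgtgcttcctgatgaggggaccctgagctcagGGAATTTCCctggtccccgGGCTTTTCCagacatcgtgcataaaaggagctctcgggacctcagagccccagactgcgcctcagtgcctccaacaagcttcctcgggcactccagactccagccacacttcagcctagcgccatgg
Cxcl3, chr5:90785851-90786150 (plus strand): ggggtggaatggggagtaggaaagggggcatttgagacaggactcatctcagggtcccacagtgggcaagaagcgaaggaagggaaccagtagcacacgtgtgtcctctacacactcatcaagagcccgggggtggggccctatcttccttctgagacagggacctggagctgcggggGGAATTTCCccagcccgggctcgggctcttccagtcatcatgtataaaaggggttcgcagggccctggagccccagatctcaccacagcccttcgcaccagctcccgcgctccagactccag
Counting from the start site to the first base of each match, the Cxcl2 window holds 2 kappa B matches, at -96 and -77, and the Cxcl3 window holds 1, at -72. The Cxcl9 window holds 2 kappa B matches, at -130 and -42, and 1 interferon response element core, at -175. The Cxcl10 window holds 1 kappa B match, at -158 on the minus strand, and 1 interferon response element core, at -213. The windows of Cxcl9 and Cxcl10 thus hold both sets of letters and those of Cxcl2 and Cxcl3 only kappa B letters, and no match overlaps another. No entry was found for Cxcl11, and Cxcl1 is not shown. Both sets of letters were shortened after matches of longer forms had been seen, so this split is not a test of the 2 kinds of chemokine. Over all 32851 promoters of the table, 5.82% hold the kappa B letters and 8.56% the interferon response element core. These shares count single promoters. Shares of gene sets count genes with a match in any of their promoters, so they are not like for like. Among genes that rose 2-fold or more, with 1704 matched, 10.2% held the kappa B letters and 13.8% the interferon response element core. Among those that rose 4-fold or more, with 838 matched, 11.1% held the kappa B letters and 16.3% the interferon response element core. Among genes that fell 2-fold or more, with 1266 matched, the shares were 6.64 and 7.50%, and among the other tested genes, with 8628 matched, 6.86 and 8.28%. The other 6 sets of letters searched, on both strands, were not all more frequent in genes that rose. The AP-1 letters TGANTCA were in 8.80% of genes that rose 2-fold or more, 10.3% of those that rose 4-fold or more, 6.48% of those that fell 2-fold or more and 6.28% of the rest. In the same order, the shares were 4.40, 5.25, 2.45 and 2.63% for the ATF4 element letters TGATGNAA and 13.97, 15.4, 8.93 and 8.41% for the TATA letters TATAAA. They were 3.46, 2.98, 1.97 and 3.51% for the cyclic AMP response element TGACGTCA and 17.0, 15.4, 16.4 and 16.8% for the antioxidant response element TGACNNNGC, where the genes that rose 4-fold or more held no larger share than the rest. For the heat shock element, spelled GAA, any 2 bases, TTC, any 2 bases and GAA, they were 0.411, 0.358, 0.711 and 0.591%. Over all promoters of the table, the shares of these 6 were 7.81, 3.97, 13.6, 1.79, 12.4 and 0.603% in the order given, and sets of letters that share bases may overlap. These shares describe letters and not bound sites.

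CC chemokines, which attract monocytes and T cells, rose from low or high starting levels. Ccl22, a ligand of CCR4 made by mature dendritic cells, was already at 91.7, 88.5 and 84.6 CPM and reached 4633, 5061 and 5014 CPM (log2 fold change 5.79 ± 0.26 SE, FDR 3.1e-18), the highest level on this list. Ccl17, the other CCR4 ligand, went from 0.336, 0.228 and 0.341 to 41.6, 49.8 and 52.7 CPM. Ccl3 rose by 6.25 on the log2 scale, to 605, 595 and 586 CPM, and Ccl4 by 7.32, to 428, 419 and 425 CPM, both attractants of monocytes and T cells. Among cytokines, Tnf went from 9.43, 9.43 and 9.10 to 1315, 1212 and 1259.6 CPM (log2 fold change 7.08 ± 0.11 SE, FDR 2.7e-28). Il12b, the p40 chain shared by IL-12 and IL-23, went from 16.1, 16.8 and 16.7 to 1374, 1499 and 1406 CPM (log2 fold change 6.43 ± 0.32 SE, FDR 4.7e-17). Il12a, the chain that pairs with p40 to form IL-12, was the single member of this list called lower, from 18.04, 19.3 and 20.6 to 12.9, 12.7 and 14.9 CPM (log2 fold change -0.52), while 2 members were called lower without Jurkat replicate 1, without untreated replicate 1, with no filter on low counts or under total counts. Il23a, the chain that pairs with p40 to form IL-23, stayed low, at 0.0420, 0.0207 and 0 CPM untreated and 0.669, 0.794 and 0.965 CPM after 4 h, a ratio of 39.4 with an exact 95% counting interval of 13.1 to 195. Il1b rose from 25.7, 25.7 and 24.3 to 1272, 1283 and 1315 CPM and Il6 from 0.252, 0.622 and 0.501 to 122, 124 and 130.03 CPM. Il10, an inhibitory cytokine, rose too, from 0.357, 0.124 and 0.1002 to 5.27, 6.67 and 5.56 CPM (log2 fold change 4.90 ± 0.27 SE, FDR 5.3e-16), a lower level than those of Tnf, Il1b and Il6 in each library.

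Interferon genes and their targets rose together. Of 21 interferon ligand genes in the table, 13 passed the filter on low counts and were tested. None of the 13 had a read in the 3 untreated KO libraries, so each passed only through other groups. Calls of higher thus follow in part from the filter. Of the 13, 12 were called higher, and the means of the 13 after 4 h lay between 0.0531 and 3.68 CPM. With each at its bound against 3 counts over the untreated group, their median was 5.08 on the log2 scale. Ifnb1, which encodes interferon beta, was the highest, at 4.17, 3.34 and 3.52 CPM, at least 179-fold above that floor. Interferon alpha genes are near-identical copies, so how their reads were shared out is uncertain. All 41 interferon-stimulated genes tested were called higher, with a median log2 fold change of 4.60 and a range of 1.06 to 8.72. Rsad2, which encodes the antiviral protein viperin, went from 5.98, 3.71 and 3.29 to 1909, 1702 and 1849.8 CPM (log2 fold change 8.72 ± 0.54 SE, FDR 7.7e-15). Oasl1, a repressor of Irf7 translation, went from 2.37, 1.89 and 1.42 to 789, 728 and 759.7 CPM (log2 fold change 8.65 ± 0.46 SE, FDR 1.5e-16). Ifit1, which binds viral RNA, rose by 7.64 on the log2 scale, to 974, 949 and 972 CPM. Its neighbour Ifit2 rose by 7.26, to 1920.1, 1689 and 1844 CPM. Irf7, the factor that amplifies interferon alpha production and that plasmacytoid dendritic cells hold ready, went from 76.3, 73.9 and 72.6 to 1954, 1639 and 1854 CPM (log2 fold change 4.61 ± 0.17 SE, FDR 2.6e-20). For each of these 5 interferon-stimulated genes, replicate 2 was the lowest of the Jurkat libraries, and all Jurkat libraries lay far above the untreated ones.

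Feedback inhibitors rose beside the inducers. Of 22 genes for NF-kB subunits and their inhibitors, 21 were called higher and none lower, with a median of 2.42, and 19 higher and 3 lower under total counts. Nfkbia, which holds NF-kB in the cytoplasm, went from 87.5, 88.6 and 87.4 to 1156, 1149.8 and 1173 CPM (log2 fold change 3.72 ± 0.057 SE, FDR 1.0e-28). Tnfaip3, the ubiquitin-editing inhibitor A20, went from 55.0, 52.1 and 50.1 to 1001, 925 and 953 CPM (log2 fold change 4.20 ± 0.072 SE, FDR 7.9e-28). Nfkbiz, a nuclear cofactor needed for Il6, rose by 4.85 on the log2 scale and Traf1, an adaptor of TNF receptors, by 4.60. Of 16 SOCS and DUSP genes, which damp cytokine and MAP kinase signals, 13 were called higher and 1 lower, or 13 and 2 under total counts. Socs1 rose by 4.83 on the log2 scale, to 75.5, 68.5 and 81.8 CPM. Socs3, which limits IL-6 signals, rose by 4.09, to 397, 387 and 411 CPM, and Cish by 4.83. Dusp2 went from 19.6, 17.8 and 17.8 to 477, 451 and 473 CPM, whereas Dusp6, which turns off ERK, fell from 88.1, 86.0 and 86.1 to 29.6, 30.8 and 34.4 CPM (log2 fold change -1.46).

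Immediate early factors split by member. Of 28 tested, 22 were called higher and 5 lower, and 19 and 6 under total counts. The number called lower was 3 without Jurkat replicate 1, with DESeq2 or with its size factors. Nr4a3, a nuclear receptor linked to dendritic cell migration, went from 17.1, 16.4 and 14.7 to 1237, 1205 and 1249 CPM (log2 fold change 6.26 ± 0.29 SE, FDR 5.7e-18). Maff, Bhlhe40 and Ier3 rose by 3.09, 2.96 and 2.68 on the log2 scale. The genes that respond fastest to serum and growth factors stood less high at 4 h: Fos was at 68.6, 59.8 and 60.8 CPM untreated and 111, 105 and 118 CPM after 4 h. Egr1 was at 37.97, 31.3 and 33.5 CPM untreated and 60.8, 57.1 and 68.9 CPM after 4 h. After 30 min of Jurkat cells, Fos was at 122, 119 and 126 CPM and Egr1 at 71.1, 72.7 and 79.4 CPM in KO cells. Nr4a1 was at 50.9, 51.3 and 56.6 CPM at 30 min and at 49.4, 47.8 and 48.7 CPM at 4 h. Atf3, a stress-induced repressor, rose from 73.6, 58.5 and 51.9 to 354, 316 and 335 CPM. Klf4 fell from 106, 107 and 110.4 to 8.59, 8.50 and 9.47 CPM (log2 fold change -3.61 ± 0.055 SE, FDR 1.1e-28) and Klf2, a quiescence factor, from 46.3, 44.5 and 54.7 to 6.50, 7.28 and 7.67 CPM (log2 fold change -2.76). Myc fell by a smaller amount, with a log2 fold change of -0.23, and the remaining members called lower were Fosl2 and Klf10, with log2 fold changes of -0.21 (FDR 0.0078) and -0.15 (FDR 0.048). Without Jurkat replicate 1 their FDR were 0.087 and 0.13, and the Klf10 call was also lost without Jurkat replicate 3 or untreated replicate 1 or 2 (FDR 0.11, 0.19 and 0.066).

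Sensors of nucleic acids and bacteria changed in both directions. Of 35 pattern recognition and inflammasome genes, 25 were called higher and 8 lower. Zbp1, which senses Z-form nucleic acid, rose from 7.48, 7.38 and 6.91 to 284, 255 and 275 CPM (log2 fold change 5.23 ± 0.19 SE, FDR 2.2e-20), and Ifih1, the RNA sensor MDA5, rose by 4.62, to 659, 596 and 654 CPM. Casp4, the mouse caspase-11 gene, went from 8.46, 7.71 and 7.77 to 184, 171 and 181 CPM, and Cd14, a co-receptor for lipopolysaccharide and for apoptotic cells, from 35.5, 29.95 and 25.9 to 216, 212 and 202 CPM. Among endosomal receptors, Tlr7 and Tlr9, the receptors for single-stranded RNA and CpG DNA, rose by 1.22 and 1.35 on the log2 scale. Tlr3, the double-stranded RNA receptor enriched in type 1 conventional dendritic cells, fell from 142, 136 and 143 to 49.7, 41.2 and 45.8 CPM (log2 fold change -1.62 ± 0.063 SE, FDR 8.7e-20). Tlr11 and Tlr12, the profilin receptors, fell with log2 fold changes of -1.58 and -1.63, and Tlr4 with -1.41.

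All 31 genes of maturation and co-stimulation were called higher, with a median log2 fold change of 3.09 and each by 2-fold or more. Cd40, the receptor through which helper T cells license dendritic cells, went from 13.4, 13.5 and 13.99 to 1219, 1161 and 1209.9 CPM (log2 fold change 6.46 ± 0.301 SE, FDR 7.0e-18). Cd70, the ligand of CD27, went from 0.126, 0.0622 and 0.0601 to 7.31, 8.08 and 6.89 CPM. Cd80, a ligand of CD28, rose by 2.79 on the log2 scale, to 78.5, 77.3 and 75.9 CPM. Cd86, the other ligand of CD28, rose by 2.73, to 499, 463 and 499.9 CPM. Ccr7, the lymph node homing receptor, rose from 108, 102 and 102 to 859.5, 861 and 858 CPM (log2 fold change 3.05 ± 0.090 SE, FDR 1.3e-22). Cd274, the inhibitory ligand PD-L1, rose as well, from 13.8, 12.4 and 12.3 to 524, 495 and 524 CPM (log2 fold change 5.32 ± 0.18 SE, FDR 5.5e-21). For each of these genes, all 3 Jurkat libraries lie above all 3 untreated ones.

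Most genes of the class I pathway were called higher, and those of class II divided. Of 31 MHC-I processing and cross-presentation genes, 28 were called higher and 2 lower, with a median of 0.82, or 22 and 7 under total counts. Nlrc5, the class I transactivator, went from 84.5, 87.3 and 86.0 to 964, 851 and 915 CPM (log2 fold change 3.40 ± 0.11 SE, FDR 7.0e-22). Tap1, which pumps peptides into the endoplasmic reticulum, rose by 1.78, Psme2, an immunoproteasome activator, by 1.74, H2-K1 by 1.503 and B2m by 1.42 on the log2 scale. H2-Q4, a class Ib gene with near-identical relatives, rose by 2.01. Wdfy4, which type 1 conventional dendritic cells need for cross-presentation, fell from 1806, 1814 and 1857 to 1363, 1155 and 1246 CPM (log2 fold change -0.54), and Rab27a, a GTPase of vesicle traffic, fell slightly, with a log2 fold change of -0.20. Of 17 class II pathway genes, 8 rose and 9 fell. The members called higher were the antigen-presenting chains H2-Aa, H2-Ab1 and H2-Eb1, the invariant chain gene Cd74, the lysosomal enzymes Ctss, Ifi30 and Lgmn, and Rfx5, a subunit of the complex on class II promoters. H2-Ab1 went from 4182, 4727 and 4769 to 8441, 8114 and 8604 CPM, and H2-Eb1, Cd74, Lgmn and Rfx5 rose by 1.04, 0.76, 0.82 and 1.19 on the log2 scale. The members called lower were the peptide exchange chains H2-DMa, H2-DMb1 and H2-DMb2, the H2-O chains that restrain them, March1, and the transcription genes Ciita, Rfxap and Rfxank. H2-DMa and H2-DMb1 fell with log2 fold changes of -0.89 and -0.697. March1, which removes class II molecules from the surface, fell from 153, 143 and 144 to 53.2, 54.8 and 58.1 CPM (log2 fold change -1.41 ± 0.071 SE, FDR 4.9e-17), and Ciita, the class II transactivator, from 646, 649 and 661 to 564, 513 and 539 CPM (log2 fold change -0.28).

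Receptors for dying cells changed one by one. Of 33 genes for apoptotic cell uptake, 18 were called higher, 9 lower and 6 not called. The median of 0.32 became -0.015 under total counts, where 12 were higher and 12 lower. Marco, a scavenger receptor, went from 0.399, 0.311 and 0.160 to 49.2, 40.9 and 44.4 CPM (log2 fold change 7.27 ± 0.27 SE, FDR 3.4e-20), and Timd4, the phosphatidylserine receptor TIM-4, from 1.78, 0.788 and 0.962 to 48.7, 46.0 and 49.4 CPM (log2 fold change 5.35 ± 0.22 SE, FDR 2.0e-19). Olr1, a lectin-like scavenger receptor, rose by 4.10 on the log2 scale. Axl, a TAM receptor that binds phosphatidylserine through Gas6, rose from 147, 118 and 103 to 755, 706 and 703 CPM (log2 fold change 2.56 ± 0.096 SE, FDR 4.1e-20). Its relative Mertk was at 22.7, 16.1 and 17.0 CPM untreated and 24.3, 20.9 and 22.7 CPM after 4 h, with overlap, and a call (log2 fold change 0.28 ± 0.13 SE, FDR 0.043) that was lost without replicate 1 or 3 of the Jurkat libraries (FDR 0.15 and 0.079), without replicate 2 or 3 of the untreated ones (FDR 0.21 and 0.15), and reversed under total counts (-0.054). Cd36, a scavenger receptor for apoptotic cells and lipids, was at 391, 244 and 184 CPM untreated and 439, 410.2 and 386 CPM after 4 h, overlapping too, and lost its call without replicate 3 of the untreated libraries (FDR 0.084) and under total counts (FDR 0.23). P2ry6, a receptor for the nucleotide UDP, fell from 107, 109 and 109 to 32.0, 32.4 and 33.0 CPM (log2 fold change -1.74 ± 0.047 SE, FDR 1.9e-23). Cd300lb, Havcr2 and Dock1 fell with log2 fold changes of -1.60, -1.41 and -1.21, for a phosphatidylserine-binding receptor, the receptor TIM-3 and an activator of Rac in engulfment.

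The genes of LC3-associated phagocytosis and autophagy fell more often than they rose. Of 44 tested, 25 were called lower and 11 higher, and the median was -0.36. Cybb, the catalytic subunit NOX2 of the NADPH oxidase that LC3-associated phagocytosis depends on, rose from 738, 633 and 631 to 1991, 1862 and 1998 CPM (log2 fold change 1.55 ± 0.067 SE, FDR 1.2e-18), and Ncf4, a regulatory subunit, from 71.9, 77.0 and 73.3 to 171, 164 and 165 CPM. These are single genes, and the complex as a whole is not described here. The selective autophagy receptors Sqstm1 and Optn rose by 3.04 and 3.36 on the log2 scale, Sqstm1 from 253, 247 and 245 to 2052, 2071 and 1992 CPM. Nbr1, another such receptor, fell from 138, 135 and 129 to 64.3, 65.9 and 64.1 CPM (log2 fold change -1.05). Ulk2, a starting kinase, Atg2b, a lipid transfer protein, and Atg7, which activates LC3 for conjugation, fell with log2 fold changes of -1.13, -1.01 and -0.93. Map1lc3b, which encodes LC3B, fell from 78.0, 80.2 and 84.3 to 61.6, 59.98 and 64.5 CPM, and Becn1, a subunit of the lipid kinase complex that Rubicon joins, rose by 0.40, a call lost under total counts (0.062, FDR 0.058). Rubcn fell by the same test, with a log2 fold change of -0.602 ± 0.049 SE (FDR 3.8e-12), and its wild-type mean went from 98.9 to 58.9 CPM.

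Of 48 lysosome and V-ATPase genes, 31 were called higher and 15 lower, with a median of 0.28 that became -0.058 under total counts, where 18 were higher and 20 lower. Atp6v1d, a subunit of the proton pump, rose from 106, 105 and 107 to 288, 269 and 283 CPM (log2 fold change 1.40 ± 0.044 SE, FDR 6.2e-22), and Mitf, a relative of the lysosomal regulator TFEB, from 19.5, 13.7 and 12.8 to 35.7, 36.1 and 35.6 CPM. The hydrolases Gusb and Asah1 and the cholesterol exporter Npc1 fell with log2 fold changes of -0.94, -0.91 and -0.85, and the lysosomal phospholipase Pla2g15 with -0.90. Ctsk and Acp5, osteoclast hydrolases, were highest in the deviating replicate 2: Ctsk was at 14.99, 42.9 and 16.3 CPM after 4 h and lost its call without that library (FDR 0.3), without untreated replicate 3 (FDR 0.051) and under total counts (FDR 0.082), while Acp5 went from 20.1, 19.4 and 19.2 to 101, 135 and 99.6 CPM.

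Cholesterol genes moved in both directions. Of 35 sterol and fatty acid synthesis genes, 18 rose and 11 fell, and the median of 0.34 became -0.0036 under total counts, with 15 higher and 17 lower. Hmgcs1, an early enzyme of the mevalonate pathway, went from 222, 203 and 189 to 631, 618 and 675 CPM. Idi1 and Hsd17b7 rose by 2.09 and 1.94 on the log2 scale. Fads1 and Scd2, fatty acid desaturases, fell with log2 fold changes of -1.76 and -1.53. Of 18 LXR and lipid efflux genes, 7 rose (38.9%, near the 37.5% of all genes) and 5 fell. Under total counts, 4 were higher and 11 lower, with a median of -0.34 against -0.37 over all genes. Ch25h, which makes 25-hydroxycholesterol and responds to interferon, went from 0.945, 0.539 and 0.581 to 12.7, 14.3 and 13.5 CPM (log2 fold change 4.29 ± 0.20 SE, FDR 1.2e-17). Nr1h3, the receptor LXR alpha, rose from 10.6, 7.46 and 7.71 to 58.8, 47.2 and 47.2 CPM (log2 fold change 2.57 ± 0.12 SE, FDR 1.1e-17). Mylip, a ubiquitin ligase induced by LXR, rose by 1.22, and the exporters Abca1 and Abcg1 rose by 0.82 and 0.41, the latter with a call lost under total counts (FDR 0.18). The LXR partners Rxra and Rxrb fell, with log2 fold changes of -0.92 and -0.86, as did Pparg, Ppard and Arl4c by less.

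Of 36 glycolysis and hypoxia response genes, 20 rose and 11 fell, or 17 and 16 under total counts. Slc2a1, the glucose transporter GLUT1, went from 48.5, 44.2 and 45.1 to 140.1, 124 and 135 CPM and Pfkfb3, which makes the activator of phosphofructokinase, from 179, 172 and 175 to 523, 516 and 523 CPM. Eno2 rose by 3.45 and Pfkp, the platelet phosphofructokinase, by 1.63, whereas the muscle form Pfkm fell from 18.6, 18.5 and 17.99 to 7.01, 7.57 and 6.39 CPM. Pdk1, which keeps pyruvate out of mitochondria, fell with a log2 fold change of -1.44, and Aldoc and Gpi1 with -1.07 and -0.92. Gapdh rose by 0.35 and Actb by 1.38, so neither is level between these groups, and the Gapdh call was lost under total counts (FDR 0.85). Ldha was at 528, 532 and 514 CPM untreated and 517, 483 and 484 CPM after 4 h, with overlap. Its call (log2 fold change -0.085, FDR 0.046) was lost when any of Jurkat replicates 2 and 3 or untreated replicates 1 and 2 was left out, with FDR 0.15, 0.15, 0.096 and 0.12. It was also lost in a fit of the compared groups alone (FDR 0.21), with the stricter filter (FDR 0.39), with DESeq2 (FDR 0.57) and with its size factors (FDR 0.58).

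In 3 lists of stress genes more members were called higher than lower, under total counts too. In the unfolded protein and integrated stress response, 27 of 38 rose and 6 fell, or 22 and 12 under total counts. Slc7a11, the cystine transporter, went from 7.06, 5.97 and 5.49 to 116, 128 and 122 CPM (log2 fold change 4.31 ± 0.14 SE, FDR 2.7e-21), and Ppp1r15a, which ends translational arrest, from 19.6, 19.2 and 19.0 to 185, 185 and 188 CPM. Chac1, Trib3 and Cebpb rose by 2.74, 1.67 and 2.53 on the log2 scale. Hspa5, the chaperone BiP, rose by 1.29, and Ddit3, the death-linked factor CHOP, by 0.40, a call lost under total counts (FDR 0.4), while the stress sensor gene Eif2ak3 fell with -0.98. Among heat shock genes, 18 of 22 rose and 1 fell, or 11 and 6 under total counts. The inducible HSP70 genes, near-identical copies between which reads may be split, rose most: Hspa1a from 0.903, 0.974 and 0.882 to 34.9, 32.1 and 33.8 CPM and Hspa1b by 4.03. Dnaja1 and Bag3 rose by 1.33 and 0.92, and Fkbp4 fell with -0.499. Of 26 NRF2 targets, 21 rose and 3 fell, or 18 and 5 under total counts. Txnrd1 rose from 145, 136 and 129 to 692, 676 and 653 CPM, Hmox1, the haem oxygenase, from 75.0, 55.0 and 51.9 to 262, 269 and 234 CPM, and Gclm and Nqo1 by 1.04 and 2.94. Cat, the catalase, and Osgin1 fell, with log2 fold changes of -0.96 and -1.16, and Slc48a1 was the remaining member called lower.

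Survival genes rose and several caspases fell. Of 29 genes of cell death and survival, 17 were called higher and 7 lower. The A1 genes Bcl2a1a, Bcl2a1b and Bcl2a1d, NF-kB driven inhibitors of apoptosis that are near-identical copies, rose by 5.44, 4.57 and 4.90. Bcl2l1, which encodes BCL-XL, went from 23.7, 21.4 and 18.2 to 248, 239.7 and 240.5 CPM (log2 fold change 3.52 ± 0.091 SE, FDR 6.3e-24), and Mcl1 rose by 0.76. The pro-apoptotic Bcl2l11, which encodes BIM, also rose, from 60.5, 55.3 and 57.0 to 292, 289 and 301 CPM (log2 fold change 2.35 ± 0.060 SE, FDR 4.5e-24). Its relative Bmf fell from 77.3, 80.5 and 83.7 to 16.0, 15.5 and 16.7 CPM, and Casp6, Casp2 and Casp9 fell with log2 fold changes of -2.36, -1.56 and -1.46.

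Most genes of the cell cycle fell. Of 57 tested, 46 were called lower and 6 higher, with a median of -0.57, or 52 lower and 3 higher under total counts. Mki67, a marker of cycling cells, fell from 574, 624 and 603 to 433, 408 and 416 CPM (log2 fold change -0.52), E2f2, a factor of S-phase entry, from 81.2, 86.4 and 87.5 to 25.9, 25.4 and 25.7 CPM (log2 fold change -1.73 ± 0.045 SE, FDR 6.4e-24), and Cdc6, Lig1 and Kif20a with log2 fold changes of -1.11, -1.10 and -1.06. Cdkn1a, the inhibitor p21, was the member that rose most, from 73.9, 71.1 and 69.3 to 1656, 1568 and 1673 CPM (log2 fold change 4.51 ± 0.12 SE, FDR 2.8e-23), and Ccnd2, a D-type cyclin, rose from 131, 127 and 129.9 to 1301, 1176 and 1269 CPM (log2 fold change 3.27 ± 0.093 SE, FDR 5.2e-23). Of 343 Zfp genes, 222 fell and 63 rose, or 268 and 38 under total counts. Of 81 cytoplasmic ribosomal protein genes, 47 fell and 8 rose, mostly by small amounts (median -0.17). Under total counts, 72 of these fell and 4 rose, and without untreated replicate 1 5 rose. Zfp36, the mRNA decay factor tristetraprolin that shortens the life of Tnf mRNA, rose from 185, 175 and 184 to 1042, 957 and 1062 CPM (log2 fold change 2.49 ± 0.055 SE, FDR 1.5e-25), and Zfp395 fell from 34.4, 35.2 and 36.6 to 4.20, 4.45 and 4.88 CPM. Some members of both families that untreated cells hardly expressed rose far more, and their levels were also raised after 30 min of Jurkat cells. Rpl10l, named after its values were seen like Zfp711, was at 0, 0 and 0 CPM untreated and 4.44, 5.72 and 4.41 CPM after 4 h, with 1.71, 1.74 and 1.13 CPM at 30 min. Zfp711 was at 0, 0 and 0 CPM untreated, 1.90, 3.20 and 1.98 CPM after 4 h and 1.04, 1.11 and 0.673 CPM at 30 min. Rpl39l went from 1.55, 1.74 and 1.34 to 8.56, 11.1 and 9.97 CPM, with 5.16, 5.10 and 3.65 CPM at 30 min. The part of reads from Jurkat RNA in these levels was not tested. Of 59 oxidative phosphorylation subunit genes, 33 rose and 14 fell, with a median of 0.14. Under total counts the calls turned over, to 2 higher and 40 lower, and the median was -0.20.

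**Figure D3:**
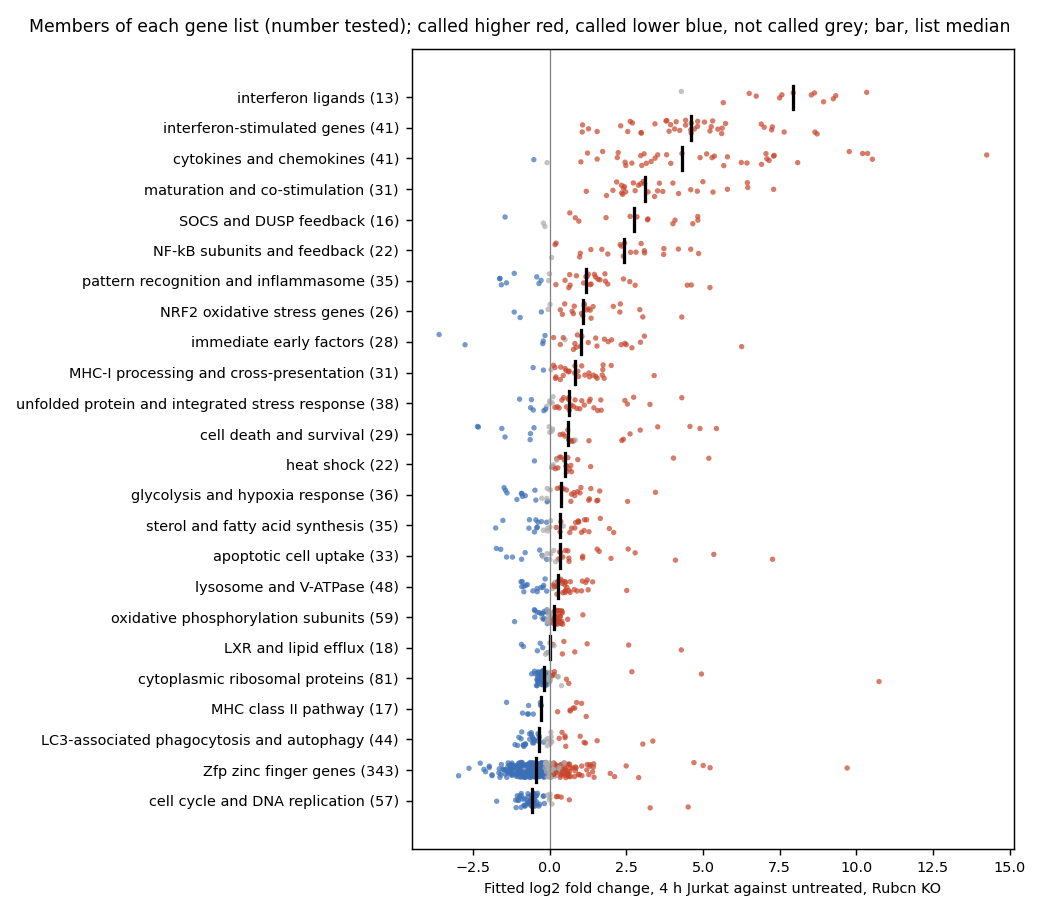
Fitted log2 fold change of each tested member of 24 gene lists, 4 h Jurkat against untreated in Rubcn KO cells, with members called higher in red, lower in blue and not called in grey, and a bar at each list's median. Interferon, cytokine and maturation lists lie to the right of 0, cell cycle and Zfp genes mostly to the left; values of genes without a read in untreated cells are fitted ones and not bounds.

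Markers of dendritic cell types changed in both directions. In these bulk libraries, fewer cells of a type and less RNA per cell cannot be told apart. Flt3, the receptor of the cytokine used for the culture, fell from 551, 547 and 564 to 249, 229 and 244 CPM (log2 fold change -1.20 ± 0.035 SE, FDR 8.2e-23). Of 24 plasmacytoid dendritic cell markers, 11 rose and 10 fell (41.7%, near the 41.0% of all genes), or 9 and 13 under total counts. Of these, Siglech fell with -0.22, Ccr9 with -0.58 and Cd209d with -1.77, Ly6d rose by 1.38 and Tcf4, the factor of their identity, by 0.41, a call lost under total counts (FDR 0.25). Of 18 markers of type 1 conventional dendritic cells, 11 fell and 7 rose, or 11 and 4 under total counts. Batf3, their transcription factor, fell from 15.8, 19.8 and 17.3 to 7.47, 6.33 and 6.97 CPM, and Itgae, Gcsam and Ppt1 fell with -1.84, -2.04 and -1.61, whereas Xcr1, the chemokine receptor that defines them, rose from 84.3, 85.2 and 88.1 to 155, 152 and 158 CPM and Clec9a, a receptor for dead cells, by 0.32, a direction that reversed under total counts (-0.015). Cd8a rose from 1.87, 1.91 and 1.88 to 43.5, 37.97 and 40.0 CPM and is also a T-cell gene. Irf8, shared by both types, fell with -0.26. Of 16 markers of type 2 conventional dendritic cells, 10 fell and 2 rose, or 13 and 1 under total counts. Cd209a fell from 140.0, 154 and 151 to 13.03, 11.2 and 12.3 CPM (log2 fold change -3.61 ± 0.065 SE, FDR 2.6e-27), Clec10a from 153, 177 and 178 to 15.1, 15.04 and 19.3 CPM (log2 fold change -3.36 ± 0.081 SE, FDR 1.2e-24) and Irf4 from 121, 118 and 117 to 45.8, 45.3 and 47.5 CPM. Clec4a4, which rose by 1.16, and Ltb were called higher. Sirpa, at 691, 635 and 621 CPM untreated and 639, 591 and 594 CPM after 4 h, was not called (log2 fold change -0.093, FDR 0.066). It was called lower under total counts (-0.43, FDR 1.4e-09), with no filter on low counts (FDR 0.023), without Jurkat replicate 1 (FDR 0.02) and without untreated replicate 3 (FDR 0.029).

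Markers of other cells that such a culture can hold were checked in the same way. Of 17 monocyte and macrophage markers, 10 rose and 5 fell, or 7 and 7 under total counts. Fcgr1, a high-affinity IgG receptor, rose from 21.4, 18.6 and 15.8 to 86.0, 73.2 and 81.9 CPM, while Ccr2, the receptor for exit from marrow, fell from 1043, 940.0 and 963 to 386, 381 and 426 CPM (log2 fold change -1.30 ± 0.074 SE, FDR 8.5e-16). Mrc1 and F13a1 fell with log2 fold changes of -0.92 and -0.62, and Lyz2 was called lower too. Csf1r was at 412, 361 and 329.6 CPM untreated and 388, 348 and 335 CPM after 4 h and was not called (log2 fold change -0.041 ± 0.069 SE, FDR 0.59), but was called lower under total counts (-0.38, FDR 7.2e-06). Stromal markers were called higher in 17 of 18 cases, but in 10 without the deviating replicate 2, 10 without untreated replicate 3 and 5 under total counts. Pdgfra, a stromal growth factor receptor gene, was at 6.26, 5.53 and 5.65 CPM untreated and 10.6, 14.8 and 10.02 CPM after 4 h. Kdr, an endothelial receptor gene, went from 17.4, 15.6 and 15.2 to 830.2, 728 and 785 CPM (log2 fold change 5.61 ± 0.25 SE, FDR 2.9e-18), while 6 of the 11 endothelial markers tested were not called, Flt1 and Eng rose, and Pecam1 and Plvap fell. Of 10 basophil and mast cell markers, 6 rose and none fell, with 3 higher without Jurkat replicate 3 and 1 higher and 1 lower under total counts. Hdc, which makes histamine and serves as a basophil marker, rose from 2.81, 3.98 and 3.31 to 25.1, 23.7 and 27.2 CPM (log2 fold change 2.91 ± 0.14 SE, FDR 2.6e-17), and Mcpt8, the protease that defines basophils, was at 12.6, 20.5 and 18.2 CPM untreated and 17.7, 22.2 and 25.6 CPM after 4 h. The Mcpt8 groups overlap, and its call (FDR 0.028) was lost without Jurkat replicate 2 or 3 or untreated replicate 1, with FDR 0.061, 0.2 and 0.25, and under total counts (FDR 0.92). Of 15 neutrophil markers, 5 rose and 5 fell, or 4 and 10 under total counts. Of 9 B cell markers, 6 rose and 2 fell, or 3 and 2 under total counts. The summed level of all B cell markers was 45.6 to 47.8 CPM untreated and 38.9 to 40.9 CPM after 4 h. Of 6 NK cell markers, 3 rose and 2 fell, with 1 lower without Jurkat replicate 1 or untreated replicate 2 or 3. Only 3 erythroid markers were tested, of which 1 rose and 2 fell, and leaving out any 1 of the 6 libraries left at most 1 of the falls. The part of these cells in the other results was not tested.

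Outside the lists, the 10 largest rises at 5 CPM or more held Nos2, the inducible nitric oxide synthase, and Acod1, which makes itaconate. Nos2 went from 0.0840, 0.0207 and 0 to 38.6, 37.4 and 33.7 CPM (log2 fold change 9.94 ± 0.45 SE, FDR 4.1e-18) and Acod1 from 0.588, 0.871 and 0.882 to 774, 689.9 and 692 CPM (log2 fold change 9.84 ± 0.48 SE, FDR 2.1e-17). Shisa3 had 1 count over the 3 untreated libraries and 985 over the Jurkat ones. Myo7b, a myosin of epithelial microvilli, was at 0, 0.0415 and 0 CPM untreated and 22.96, 31.8 and 26.1 CPM after 4 h, and was at 8.26, 8.07 and 6.08 CPM after 30 min of Jurkat cells, so its level moved with that of the T-lineage genes. The 10 largest falls from 5 CPM or more were Abca6, Cd300lg, Hpgd, Hepacam2, Lpar5, Kif5a, Lrrc3, Card10, Dpep3 and Susd3, with log2 fold changes from -5.17 to -3.85. Cd300lg went from 47.1, 51.2 and 50.4 to 1.61, 1.83 and 1.46 CPM (log2 fold change -4.92 ± 0.077 SE, FDR 1.2e-28). Hpgd, which inactivates prostaglandins, went from 98.3, 87.4 and 91.1 to 3.69, 2.86 and 3.13 CPM (log2 fold change -4.84 ± 0.11 SE, FDR 1.8e-25), and Lpar5, a receptor for lysophosphatidic acid, from 39.7, 38.6 and 40.1 to 2.09, 1.85 and 1.93 CPM (log2 fold change -4.33 ± 0.092 SE, FDR 8.7e-26). In each of the 10, the lowest untreated library was more than several times the highest Jurkat library.

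Genes that rose 2-fold or more started low. Their median level in untreated cells was 1.34 CPM, against 14.5 CPM for those that fell 2-fold or more and 26.8 CPM for the other tested genes. The contrast in starting level is in part built in, since the same untreated values enter the fold change that sorted the genes. Genes hardly read in untreated cells also passed the filter on low counts only through other groups. How much of the contrast remains without this was not tested. Gene spans in the table had medians of 19.0, 18.1 and 21.0 kb in the same order. The GC content of the longest GENCODE transcript had medians of 50.1, 51.1 and 49.6%, with at least 98.1% of each set matched.

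The 4 h Jurkat libraries were also set against those given OVA, a soluble protein, for the same time. At 4 h in KO cells, 5376 genes were higher with Jurkat cells (36.3% of those tested) and 5937 lower (40.1%), or 76.4% in all. The gain over OVA covered 41 of 41 interferon-stimulated genes, 31 of 31 maturation genes and 39 of 41 cytokines and chemokines. OVA against untreated cells, which shares the untreated libraries with the main comparison, called 879 genes higher (5.94%), 39 of 41 interferon-stimulated genes among them, by less: the median of that list was 0.88 with OVA and 4.60 with Jurkat cells. Cxcl10 was at 36.4, 23.8 and 30.01 CPM with OVA and Tnf at 40.1, 34.3 and 37.6 CPM. The largest rises over OVA among genes at 5 CPM or more were Myo7b, Aldoart2 and Acta1, by 9.42, 8.34 and 8.25 on the log2 scale. Aldoart2 was at 7.47, 8.90 and 7.72 CPM with Jurkat cells and at a mean of 0.0222 CPM with OVA, and Acta1, a skeletal muscle actin gene with close relatives, at 14.7, 19.5 and 14.9 and a mean of 0.0506 CPM. After 30 min of Jurkat cells, Aldoart2 was at 2.51, 2.82 and 1.76 CPM and Acta1 at 5.29, 5.19 and 3.495 CPM. The largest falls were Cd300lg, Hpgd and Abca6, with -4.71, -4.65 and -4.58.

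Time was compared within KO cells given Jurkat cells. Between 30 min and 4 h, 5453 genes were higher at 4 h (36.8%) and 5971 lower (40.3%), or 77.1% in all. Without the deviating replicate 1 at 30 min, 5281 were higher and 5858 lower. At 30 min itself, 1291 genes were called higher than in untreated cells (8.72%) and 1223 lower (8.26%), against 856 higher and 830 lower without replicate 1. The 10 genes that rose most at 4 h while also higher than at 30 min and read at 1 CPM or more in untreated cells were Cxcl10, Rsad2, Oasl1, Ifit1, Ccl4, Ifit2, Ifit1bl1, Clec4e, Tnf and Ifit3. Clec4e, the receptor Mincle that senses material of dead cells, went from 3.11, 2.40 and 2.505 to 376, 377 and 371 CPM (log2 fold change 7.13 ± 0.24 SE, FDR 2.1e-21) and stood at 28.0, 9.79 and 12.98 CPM at 30 min. Ifit1 was at 57.9, 7.59 and 12.2 CPM and Ifit3 at 34.8, 5.92 and 8.16 CPM at 30 min, with replicate 1 highest in each. Ifit1bl1 was at 18.1, 2.66 and 3.93 CPM then and at 287, 292 and 305 CPM at 4 h. Tnf had moved early in all 3 libraries, to 133, 98.5 and 131 CPM. Against 30 min, Cxcl10 was higher by 5.49 on the log2 scale with the 3 early libraries and by 7.07 without replicate 1, Rsad2 by 5.32 and 6.90, and Tnf by 3.38 and 3.46.

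**Figure D4:**
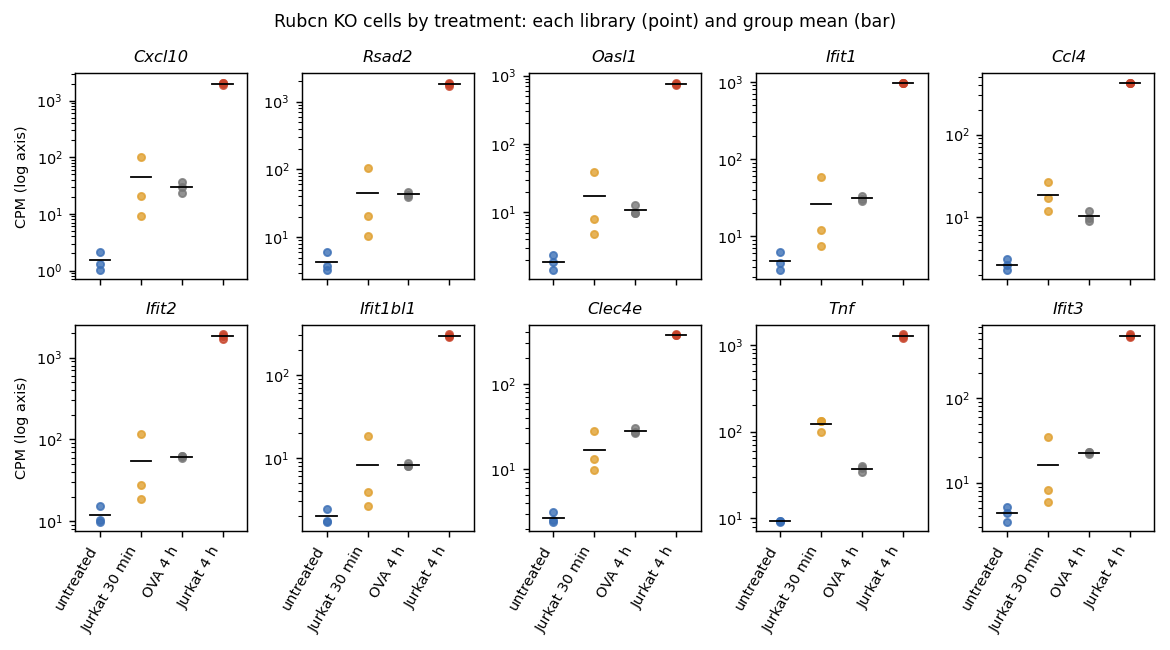
Levels of 10 genes in each Rubcn KO library (CPM, log axis) untreated, after Jurkat cells for 30 min, after OVA for 4 h and after Jurkat cells for 4 h, with bars for group means. All 3 libraries of Jurkat 4 h lie above every other library for each gene, and 1 library of Jurkat 30 min lies above the other 2 for the Ifit genes, Rsad2, Oasl1 and Cxcl10.

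The design also asks whether the response of KO cells differs from that of wild-type cells, and the test of the difference was the interaction. It called 631 of 14808 genes (4.26%), 254 with a higher log2 response in KO cells (1.72%) and 377 with a lower one (2.55%), and 50 of them by 2-fold or more (0.108% higher and 0.23% lower). The count fell by over 1.5 times without each of 5 libraries: it was 392 without KO Jurkat replicate 3, 386 and 419 without KO untreated replicates 1 and 2, 365 without WT Jurkat replicate 2 and 377 without WT untreated replicate 2. The split by direction depended on scaling too, with 76.8% of calls higher in KO under total counts against 40.3% under TMM. Interaction counts given under total counts stand against 661 genes with a higher log2 response in KO cells and 200 with a lower one. For a gene that fell in both genotypes, a higher log2 response in KO cells is a smaller fall. A lower one is a larger fall.

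By their medians, the interferon-stimulated, cytokine and maturation lists also rose in wild-type cells. The median log2 fold change of the 41 interferon-stimulated genes was 3.91 in wild-type and 4.60 in KO cells. For cytokines and chemokines the medians were 4.53 and 4.31, and for maturation genes 3.002 and 3.09. By the interaction, 10 of 41 interferon-stimulated genes had a higher log2 response in KO cells and none a lower one, and leaving out 1 library at a time gave 5 to 10 higher and none lower, the fewest without KO untreated replicate 3 or WT untreated replicate 3. The differences in these 10 ran from 0.28 for Irf9, a subunit of the interferon-activated factor ISGF3, to 1.51 for Ifi44, both named after their values were seen. Ifi44 was at a mean of 2.93 CPM in untreated KO and 25.7 CPM in untreated wild-type cells, and at 117 and 359 CPM after Jurkat cells. Irf9 was at 122 and 156 CPM untreated and at 256 and 269 CPM after Jurkat cells. Both genes thus started lower in KO cells, and for Rsad2, which the interaction did not call (0.56, FDR 0.7), the untreated means were 4.33 and 11.3 CPM and those after Jurkat cells 1820.2 and 3228 CPM.

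Lower responses in KO cells were found for sterol and heat shock genes. Of 35 sterol genes, 10 had a lower response in KO cells and none a higher one, and 7 under total counts. Leaving out 1 library at a time gave 3 to 13 lower, the fewest without KO Jurkat replicate 2 or WT Jurkat replicate 2. Of 22 heat shock genes, 6 had a lower response and none a higher one, or 4 and none under total counts, and 4 without KO untreated replicate 1 to 9 without WT Jurkat replicate 1. Hsph1, a co-chaperone of HSP70, went from a mean of 59.6 to 97.6 CPM in KO and from 56.9 to 134 CPM in wild-type cells. Of 28 T-lineage markers, 4 had a lower response in KO cells and none a higher one. The fewest when 1 library was left out were 2, without KO untreated replicate 2. They were Lck, Tox, Rag1 and Rag2, with interactions of -0.85, -1.17, -0.63 and -0.78. The 14 T-lineage markers under 1 CPM in untreated KO cells also differed by genotype once Jurkat cells were given. After 4 h their sums were 67.0, 85.6 and 72.6 CPM in KO and 120, 90.3 and 118 CPM in wild-type cells. After 30 min the sums were 30.1, 30.4 and 20.0 CPM in KO and 42.6, 43.9 and 41.6 CPM in wild-type cells, again without overlap. The part of this signal in the other differences was not tested. Among cytokines and chemokines, no gene had a higher response in KO cells, and Ccl7 (-1.07) and Il1rn, the IL-1 receptor antagonist (-0.69), had a lower one, both named after their values were seen. Without KO untreated replicate 1, 1 had a lower response, and without KO untreated replicate 3, 4. Ifnb1 was at 4.17, 3.34 and 3.52 CPM in KO and 9.68, 15.8 and 12.1 CPM in wild-type cells after Jurkat cells, without overlap, and had no read in either untreated group, so its responses have no measured start, and its interaction was not called (FDR 1). For Cxcl10 the interaction was 0.24 ± 0.89 (SE, FDR 0.93) and for Tnf -0.019 ± 0.14 (SE, FDR 0.97), neither called.

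The single genes below were picked for the 5 smallest interaction p in each direction. Il1rl1, the IL-33 receptor ST2, fell from a mean of 21.0 to 8.75 CPM in KO cells and from 20.1 to 3.29 CPM in wild-type cells (interaction 1.34 ± 0.12, SE, FDR 8.0e-08). Lbh, a transcription cofactor, fell from 285 to 27.7 CPM in KO and from 298 to 21.2 CPM in wild-type cells (interaction 0.45, FDR 1.6e-05). Strip2 went from 30.2 to 31.1 CPM in KO cells, where it was not called (FDR 0.48), and from 40.3 to 25.3 CPM in wild-type cells (interaction 0.71, FDR 5.7e-06). H2-Q5, a class Ib gene with near-identical relatives, and Rtl5 completed the 5 genes with the smallest p and a higher log2 response in KO, with interactions of 0.86 and 0.43. For Il1rl1 and Lbh, the higher log2 response was a smaller fall in KO cells. In the other direction, Mid1 rose from 10.7 to 23.2 CPM in KO and from 3.23 to 11.7 CPM in wild-type cells (interaction -0.74, FDR 1.2e-04), a smaller fold from a higher start. Rag1, a recombinase gene that marks lymphoid history in plasmacytoid dendritic cells, went from 21.0 to 16.5 CPM in KO and from 12.1 to 14.6 CPM in wild-type cells (-0.63, FDR 2.2e-04). Rin2 and Mtus1 had interactions of -0.61 and -0.85. The untreated means of H2-Q5, Mid1 and Rag1 already differed by genotype, so the same interaction can hold a difference of the start as well as of the end.

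**Figure D5:**
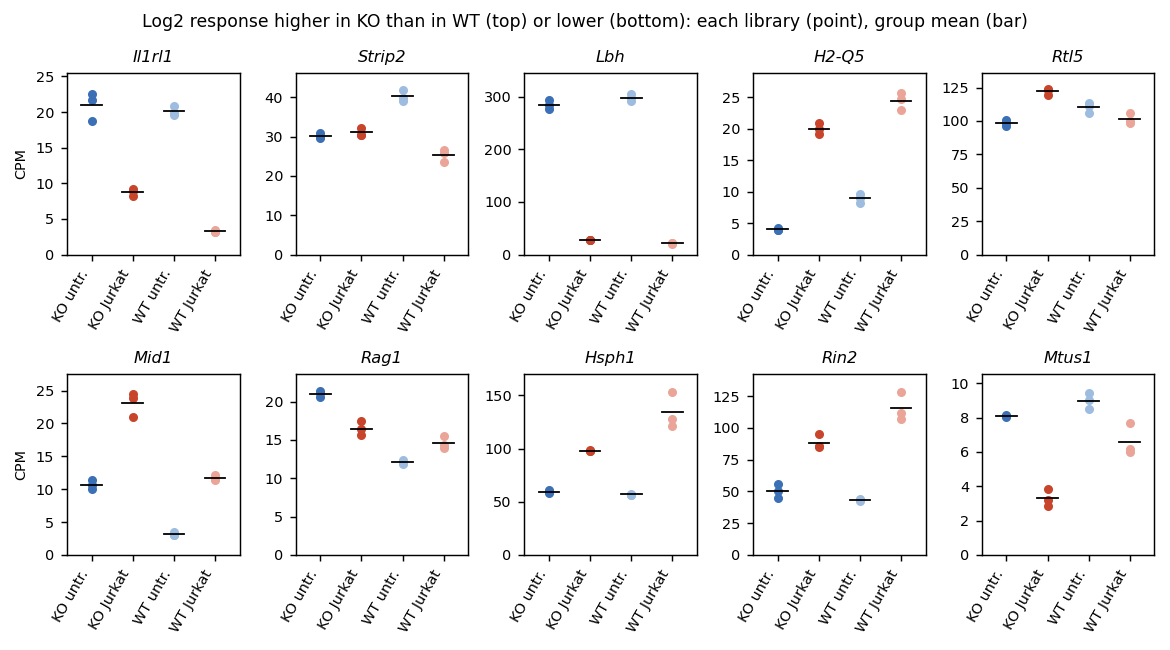
Levels of 10 genes in each library (CPM, axes from 0), KO and WT, untreated and after Jurkat cells for 4 h, with bars for group means; the top row has a higher log2 response in KO and the bottom row a lower one. Il1rl1 and Lbh end higher in KO, while H2-Q5, Mid1 and Rag1 differ by genotype before treatment.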

How the data were processed

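RNA from 30 libraries in 10 groups was measured by mRNA sequencing, and the authors deposited whole-number read counts per gene, with no normalization. Per the submitters' processing notes, STAR 2.5 and featureCounts 1.5.0-p1 of Subread were used with build mm10, and DESeq2 is named. No source used here states the annotation, the strand setting or how human reads were handled. Libraries held 9734778 to 51642601 counts. Of 25611 gene rows, 14808 passed filterByExpr by group and held 99.99% of counts. One edgeR 4.0.16 quasi-likelihood fit (R 4.3.3, limma 3.58.1) with a mean per group was made on all 30 libraries with TMM scaling, and contrasts were tested two-sided with Benjamini-Hochberg adjustment at 0.05. The standard error is the log2 fold change divided by the root of F, and CPM have no prior count. The script was tested on simulated data. DESeq2 1.42.0 was an alternative, beside other scalings, filters, library sets and a replicate block. Leaving out replicate 1 of KO Jurkat 30 min from the 30 min calls was chosen after seeing the data. Libraries were grouped by their titles. Replicate numbers were taken from the titles, and correlations of same-numbered deviations of 0.0341, 0.0163 and 0.107 do not pair them.

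Genes are named by a rule: panel genes, up to 4 members per list and direction with the largest changes and a mean of at least 5 CPM, the 10 largest rises and falls over all genes, the 10 largest rises also higher than at 30 min, the 5 smallest interaction p in each direction, and the 3 largest differences from OVA. Genes called in counts of 5 or fewer, and Rn45s, Lars2, Rmrp, Cd3e, Rpl10l, Zfp711, Rag2, Ccl7, Il1rn, Irf9, Ifi44 and the class II genes given without values, were named after their values were seen. The comparison, the lists and the genes were chosen with earlier results of these data known. Floors are 3 counts over a group, and intervals cover counting error only. A few genes are not reported here. The kappa B and interferon response element letters searched were shortened after matches of longer forms had been seen.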

Additional observations from a re-analysis of the deposited data

Results flagged for a closer look

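The response of KO cells to Jurkat cells differed from that of wild-type cells by the interaction test in 631 genes, and the named genes among them are given with the KO response minus the wild-type response on the log2 scale. Among interferon-stimulated and class I genes, the difference was 0.28 for Irf9, 1.51 for Ifi44, 0.18 for H2-K1, 0.35 for H2-Q4 and 0.86 for H2-Q5. Among early factors it was 0.88 for Egr1, 0.30 for Nr4a1, -0.59 for Atf3 and -0.43 for Myc, so these members differed in sign. In genes of cell death and the cell cycle it was 0.27 for Casp6, 0.46 for Bmf, -0.46 for Bcl2l1, 0.31 for Kif20a and -0.44 for Ccnd2. In dendritic cell and basophil markers it was 0.71 for Gcsam, -0.53 for Itgae and -1.38 for Hdc, and Hdc thus rose less in KO cells. In genes of uptake, autophagy and the lysosome it was -0.84 for Mertk, -0.26 for Havcr2, -0.58 for Optn and -0.25 for Atp6v1d. Each of these log2 responses was lower in KO cells, which for Havcr2 is a larger fall. Stress genes were lower too, with -0.21 for Hspa5, -0.31 for Ddit3 and -0.53 for Hsph1. In cytokine genes and a cytokine inhibitor it was -1.07 for Ccl7, -0.69 for Il1rn and -0.46 for Socs3. In T-lineage markers it was -0.85 for Lck, -1.17 for Tox, -0.63 for Rag1 and -0.78 for Rag2, and in a ribosomal protein gene raised at 30 min of Jurkat cells it was -1.06 for Rpl39l, against 3.23 for Rn45s, where Rn45s rests on KO Jurkat replicate 2. For Casp6, Bmf, Kif20a, Gcsam, Il1rl1, Lbh and Hepacam2 a higher log2 response is a smaller fall in KO cells. For Itgae the lower log2 response is a larger fall in KO cells. The remaining genes with a higher log2 response in KO cells had 1.34 for Il1rl1, 0.71 for Strip2, 0.45 for Lbh, 0.43 for Rtl5 and 0.43 for Hepacam2. Those with a lower one had -0.74 for Mid1, -0.61 for Rin2, -0.85 for Mtus1 and -0.27 for Actb.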

How the results depend on the processing

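The number of genes called in the 4 h comparison stayed within 1.5 times of 11619 under every alternative run, from 9201 with a stricter filter of 5 CPM in 3 libraries to 11921 with no filter. The stricter filter, which tests fewer genes, lowered the counts at 2-fold or more to 2328 against untreated, 2054 against OVA, 2188 against 30 min and 23 for the interaction. A fit of the compared groups alone left 337 interaction calls against 631, with 68.5% of them higher in KO. DESeq2 called 11369 genes in the 4 h comparison and 796 for the interaction. Leaving out 1 library at a time gave 365 to 648 interaction calls, and 30 to 52 at 2-fold or more, the lowest without KO untreated replicate 2. Leaving out genes higher at 30 min of Jurkat cells than of OVA gave 29 at 2-fold or more. The T-lineage sum differed by 33.3 CPM between groups under TMM and reversed to -50.9 CPM under total counts. With a replicate block, 11656 genes were called against untreated, 11379 against OVA, 11473 against 30 min and 725 for the interaction, though the numbers share only a label. None of these 4 counts moved by over 1.5 times, but endothelial markers called higher went from 3 to 5 and stromal markers called lower from 0 to 1. The stricter filter left 2 interferon ligands and 8 T-lineage markers called higher. Over 267 named genes, 3634 of 3690 recomputed log2 fold changes kept direction and call, 40 lost the call, 6 gained one and 10 reversed. Mertk (-0.054), Clec9a (-0.015), Rag2 (-0.058), Strip2 (-0.296) and Rtl5 (-0.025) reversed under total counts. Csf1r reversed to 0.020 with DESeq2 size factors, 0.020 with DESeq2, and 0.010 with the stricter filter, and lay between -0.11 and 0.048 when 1 library was left out, above 0 without untreated replicate 1 (0.048) or Jurkat replicate 3 (0.0020). Except for the smaller sets of genes or libraries tested, the cause was not tested. Rn45s and Lars2 rested on Jurkat replicate 2, without which their log2 fold changes were 0.44 (FDR 0.12) and 0.37 (FDR 0.13). Depth limits genes with few counts in untreated cells, whose folds are bounds or wide intervals.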
